A study of Mus musculus with 12 samples.

Results

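The Kruppel-like factors described here were 10 genes, Klf2, Klf3, Klf4, Klf5, Klf6, Klf7, Klf9, Klf10, Klf13 and Klf15, taken by symbol from a table of 56691 genes that held 17 Klf rows. They were read in all 12 libraries of MC3T3-E1, a mouse calvarial pre-osteoblast line that forms and mineralizes bone matrix in culture. The set was chosen by the counts of Klf4, named as low with ZK191784. The levels of Klf4 in the comparisons with ZK191784 or with control are therefore given as a description, without a test. The other 9 genes were read in every group whatever their result.

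The cultures, wild type by label, were differentiated for 28 days, and the treatments covered the last 24 h, from day 27. The medium of all 4 groups held 0.1 µM dexamethasone, a synthetic glucocorticoid, with 50 µg/ml of ascorbic acid and, as a source of phosphate, 10 mM beta-glycerophosphate (BGP), so control cells had these too. The first group received 100 µM 25-hydroxyvitamin D (25(OH)D), from which the active hormone is made, with 100 µM ZK191784, a synthetic vitamin D analogue that acts as a tissue-selective antagonist of the vitamin D receptor. The second received 100 µM 25(OH)D with a further 4 mM BGP, the third 100 µM 25(OH)D alone, and the fourth, the control, none of these. No group received ZK191784 or the added BGP without 25(OH)D, and the micromolar unit of the 25(OH)D and ZK191784 doses is as labelled and could not be checked. A group was 3 libraries made by 3′ mRNA-seq from a single line, and the labels name no separate cultures, so the spread behind each p-value is that of these libraries and may be technical.

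Kruppel-like factors are transcription factors with a zinc-finger DNA-binding domain at the C-terminus that reads GC-rich sequence, the GC box and the CACCC box. They share this domain with the Sp factors and differ in the rest of the protein, by which some members mainly activate and others recruit the corepressors CtBP or Sin3. In mesenchymal cells members of the family are known to act on the choice between osteoblast and adipocyte fates, and several respond within hours to hormones, growth factors or mechanical load.

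The libraries held between 3318723 and 5170980 counts, and 14394 genes, 9 of the 10 factors among them, passed the filter on low counts; Klf15 did not. All 8 osteoblast markers looked for had counts in every group, Runx2, Alpl and Col1a1 among them. Their summed level was 56951 to 60997 CPM (counts scaled to library size) with 25(OH)D plus ZK191784, 15092 to 18971 CPM with 25(OH)D plus BGP, 18390 to 20066 CPM with 25(OH)D and 102539 to 126519 CPM in control. Of other cell types, 6 of 7 endothelial markers had counts, Pecam1 with 1500 over all libraries, and Cdh5 had 0. All 6 macrophage markers had counts, but most were of Ptprc, the leukocyte antigen CD45, with 10899 over all libraries. Csf1r had 99, Adgre1 64 and C1qa 1. The sum of the 6 was 195 to 360 CPM with 25(OH)D plus ZK191784 and 168 to 350.1 CPM with 25(OH)D plus BGP. It was 178 to 328 CPM with 25(OH)D and 197 to 413 CPM in control. The 4 smooth muscle markers, led by Acta2, summed to 365 to 494, 397 to 511, 405 to 566 and 295 to 355 CPM in the same 4 groups. The libraries also differed within groups, and once group means had been taken out the first component held 58.9% of the variation left. They also differed within groups in the log2 ratio of counts for 86 ribosomal protein genes to counts for pseudogenes and Gm-numbered genes, a measure taken up after the data had been seen and called the library ratio here. That ratio was −0.90, −1.23 and −1.67 with 25(OH)D plus ZK191784, −1.75, −0.55 and −1.22 with 25(OH)D plus BGP, −0.55, −1.26 and −1.84 with 25(OH)D and −1.76, −1.87 and −0.68 in control, in the order of replicates 1 to 3 used for all values in this text.

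Promoter sequence is shown for Klf4 and Klf9, because Klf4 was the member furthest below control and Klf9 the member furthest above it in the 25(OH)D cells. Each sequence runs from 250 bases before to 50 bases after the RefSeq gene start in GRCm38.p6, on the strand of the gene, with GC boxes (GGGCGG) and CACCC boxes (CACCC) in capitals, each searched on both strands. The Klf4 window lies at chr4:55532426-55532725 on the minus strand and the Klf9 window at chr19:23140976-23141275 on the plus strand. The counts themselves were made on mm39, and no position was carried between the builds.

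Klf4: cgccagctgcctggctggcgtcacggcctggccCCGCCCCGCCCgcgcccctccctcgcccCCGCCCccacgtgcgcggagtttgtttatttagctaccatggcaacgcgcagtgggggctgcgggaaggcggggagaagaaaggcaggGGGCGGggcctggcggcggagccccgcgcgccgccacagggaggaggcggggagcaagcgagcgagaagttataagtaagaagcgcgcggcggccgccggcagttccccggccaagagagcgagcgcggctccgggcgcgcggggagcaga
Klf9: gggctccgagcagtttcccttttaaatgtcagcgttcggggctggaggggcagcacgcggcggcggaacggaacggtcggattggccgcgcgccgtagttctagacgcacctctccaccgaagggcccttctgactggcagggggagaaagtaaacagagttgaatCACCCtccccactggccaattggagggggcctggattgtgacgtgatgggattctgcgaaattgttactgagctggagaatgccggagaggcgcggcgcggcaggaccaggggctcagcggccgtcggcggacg

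The Klf4 window held 4 GC boxes, a pair of them sharing 1 base, no CACCC box and 74.3% G and C, and the Klf9 window held 1 CACCC box, no GC box, 3 CCAAT boxes (CCAAT) and 63.3% G and C. Of 32851 mouse promoter windows, 35.7% held a GC box, 57.5% a CACCC box and 37.4% a CCAAT box, and the median window had 52.7% G and C. Of the 10 factors 8 had a window, and 6 of those 8 held at least 1 CACCC box and 7 at least 1 GC box. A hexamer of the kind the vitamin D receptor binds (AGGTCA, with GGGTCA as another form, AGTTCA as a further one and GGTTCA as the last, on both strands) was found in the window of Klf3 only, against 43.7% of all windows.

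Klf4, a factor known from reprogramming to pluripotency and as a brake on the cell cycle in barrier epithelia, was the factor that stood furthest apart. Its level was 136, 138 and 160.5 CPM with 25(OH)D plus ZK191784, 88.1, 67.9 and 80.0 CPM with 25(OH)D plus BGP and 76.0, 66.3 and 82.1 CPM with 25(OH)D, against 642, 508 and 447 CPM in control. The 3 control libraries were far above all others, the 3 ZK191784 libraries lay between them and the rest, and the libraries with BGP overlapped those with 25(OH)D alone. These levels rested on between 275 and 311 counts per library with 25(OH)D and between 1881 and 2676 in control.

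As a log2 fold change, Klf4 was −2.83 ± 0.18 (SE, n = 3 libraries a group) in 25(OH)D cells against control, a 7.12-fold lower level. In 25(OH)D plus ZK191784 cells it was 0.95 ± 0.17 against 25(OH)D alone, a 1.94-fold higher level, and −1.88 ± 0.17 against control, a 3.68-fold lower level. The ZK191784 cells thus held 0.272 of the control level. Klf4 in 25(OH)D plus BGP cells was −2.76 ± 0.17 against control, a 6.77-fold lower level. The control libraries are common to 3 of these comparisons and the 25(OH)D libraries to 2, so the values are not independent of each other.

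The one comparison of Klf4 outside its choice was 25(OH)D plus BGP against 25(OH)D, where the mean levels were 78.7 ± 10.2 and 74.8 ± 7.99 CPM (SD, n = 3). The log2 fold change was 0.07, with a 95% interval from −0.29 to 0.43 and an edgeR adjusted p of 1.00. The order of groups for Klf4, control highest and the ZK191784 cells next, was also that of the summed osteoblast markers above, and the part of those markers in the Klf4 levels was not tested. In these bulk libraries fewer cells of a kind and less RNA per cell cannot be told apart.

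**Figure D1:**
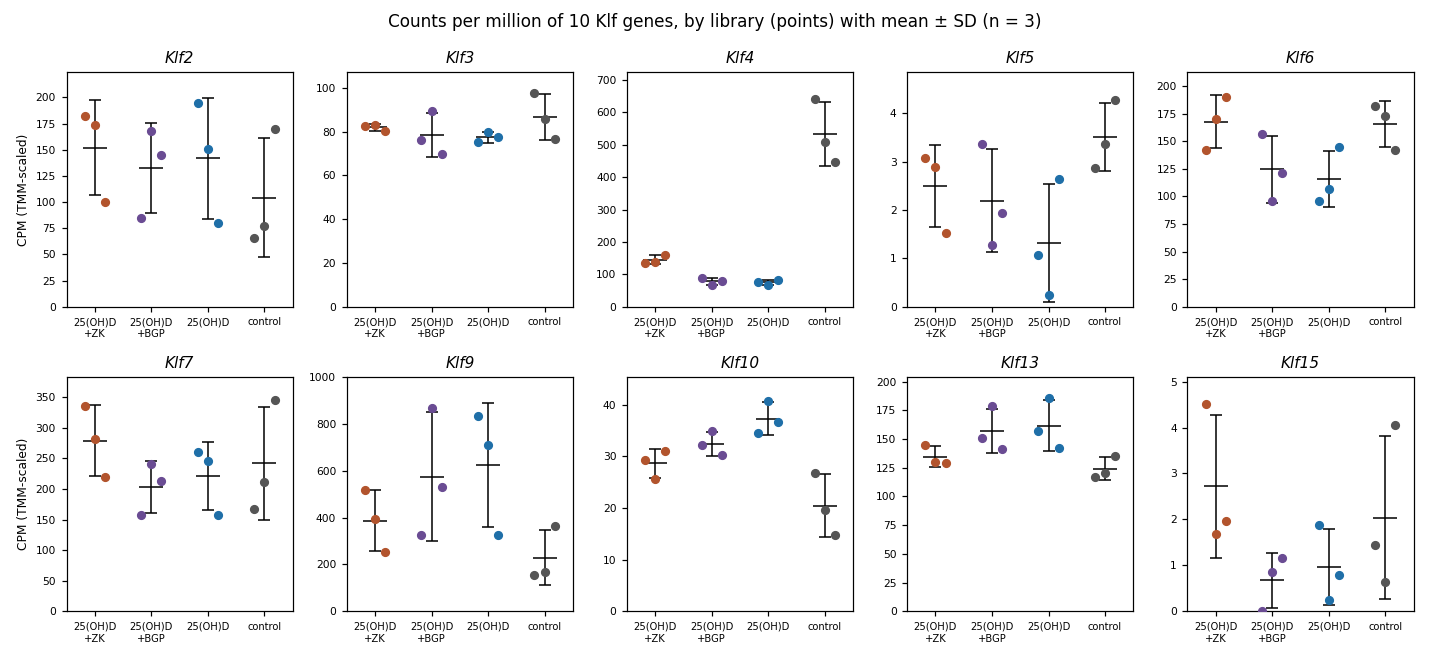
Level of each of the 10 factors in each library, in TMM-scaled CPM on an axis from 0, with 4 groups of 3 libraries; points are libraries, the horizontal line is the mean and the bars are the SD. Klf4 sits between 447 and 642 CPM in control and below 161 CPM in all 9 treated libraries, while Klf9, Klf2 and Klf7 spread widely within groups.

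The 5 genes whose log2 CPM over the 12 libraries ran closest to Klf4 were Fam102a, Bmp4, Mthfd2, Mtch1 and Ikbip, with Pearson r between 0.967 for Ikbip and 0.982 for Fam102a. The points share libraries and 3 of the 12 are the high controls, so these values describe the likeness of profiles only. Bmp4, a bone morphogenetic protein, averaged 127 CPM with 25(OH)D plus ZK191784, 94.3 CPM with 25(OH)D plus BGP, 105 CPM with 25(OH)D and 225 CPM in control. Fam102a averaged 192, 122, 138 and 591 CPM in the same 4 groups.

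Among the other members of the activating kind, none passed the test in any comparison. Klf6, a factor known from wounding and injury responses, had 142.5, 170.2 and 191 CPM with 25(OH)D plus ZK191784, 157, 96.1 and 121 CPM with 25(OH)D plus BGP and 96.3, 107 and 144.5 CPM with 25(OH)D, against 182, 173 and 142 CPM in control. The groups overlapped, with the third 25(OH)D library within the range of both control and ZK191784 libraries. The log2 fold change was −0.52 ± 0.21 for 25(OH)D against control (edgeR adjusted p = 0.181), 0.53 ± 0.21 for ZK191784 against 25(OH)D (adjusted p = 0.292) and 0.02 ± 0.21 for ZK191784 against control (adjusted p = 0.998). With the library ratio as a covariate, an alternative chosen after the data had been seen, Klf6 passed the test in the first 2 of these, at −0.43 (adjusted p = 0.00334) and 0.52 (adjusted p = 0.000633). In every group the lowest Klf6 level was in the library with the highest library ratio, and the share of all genes with that pattern was not counted.

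Klf2, known as a flow-induced factor of endothelium and as a keeper of T cell quiescence, had 182, 173 and 100 CPM with 25(OH)D plus ZK191784, 84.7, 167 and 145 CPM with 25(OH)D plus BGP and 195, 150.4 and 79.5 CPM with 25(OH)D, against 65.5, 77.1 and 169 CPM in control. All 4 groups overlapped, and the log2 fold change was 0.45 ± 0.41 for 25(OH)D against control (edgeR adjusted p = 0.612) and 0.10 ± 0.41 for ZK191784 against 25(OH)D (adjusted p = 0.979). Without 1 library the value for 25(OH)D against control lay between 0.15, without 25(OH)D replicate 1, and 1.00, without control replicate 3. The highest Klf2 level of each group was in the library with the highest library ratio, in 4 of 4 groups, as for 17.5% of all genes tested. With ZK191784 against control the Klf2 value was 0.55 and uncalled. It passed the test there only with the library ratio as a covariate (0.46, adjusted p = 0.0324). The endothelial markers summed to between 19.3 and 73.9 CPM over the 12 libraries, and Cdh5 among them was at 0.

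Klf7, known in mice from axon growth and as an inhibitor of adipocyte formation, had 336, 281 and 220 CPM with 25(OH)D plus ZK191784, 157, 240.2 and 212 CPM with 25(OH)D plus BGP and 261, 246 and 158 CPM with 25(OH)D, against 168, 212 and 345 CPM in control. All groups overlapped here too, and the log2 fold change was −0.12 ± 0.28 for 25(OH)D against control (edgeR adjusted p = 0.854) and 0.33 ± 0.28 for ZK191784 against 25(OH)D (adjusted p = 0.832). Klf7 was likewise highest in the library with the highest library ratio in 4 of 4 groups, as for 17.5% of all genes tested. With that covariate Klf7 passed the test with ZK191784 against 25(OH)D (0.37, adjusted p = 0.0321) and, in the other direction, with BGP against control (−0.38, adjusted p = 0.0191). In the fit without the covariate the BGP value was −0.25 and uncalled, and it was 0.12 without control replicate 3.

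Klf5, known from proliferating crypt epithelium and smooth muscle, was at the edge of detection. It had 15, 12 and 7 counts with 25(OH)D plus ZK191784, 12, 6 and 10 counts with 25(OH)D plus BGP and 4, 1 and 10 counts with 25(OH)D, against 12, 16 and 18 counts in control. Every 25(OH)D library was below every control library, by log2 fold change −1.41 ± 0.64, and the difference did not pass the test (edgeR adjusted p = 0.250). The value moved to −2.40 without 25(OH)D replicate 3 and to −0.89 without 25(OH)D replicate 2.

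The members that recruit Sin3 are Klf9, Klf10 and Klf13. Klf10, known as the TGF-β-inducible early gene first cloned from human osteoblasts, whose loss in mice is known to weaken bone, was the only member called of the 8 tested here, with 25(OH)D against control, where 8.68% of all genes were called. Its level was 29.3, 25.6 and 31.1 CPM with 25(OH)D plus ZK191784, 32.3, 34.9 and 30.3 CPM with 25(OH)D plus BGP and 34.5, 40.7 and 36.7 CPM with 25(OH)D, against 26.9, 19.6 and 14.7 CPM in control. Every 25(OH)D and every BGP library was above every control library, and the ZK191784 libraries overlapped control. In 25(OH)D cells Klf10 rose 1.83-fold over control (log2 fold change 0.87 ± 0.21, edgeR adjusted p = 0.0220). The call was lost when the fit held only these groups (adjusted p = 0.126) and without 25(OH)D replicate 2 (adjusted p = 0.0894), control replicate 2 (adjusted p = 0.0600) or control replicate 3 (adjusted p = 0.0532).

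Klf10 in 25(OH)D plus BGP cells was 0.67 ± 0.21 log2 units from control (edgeR adjusted p = 0.0811), and without control replicate 1 it passed the test (adjusted p = 0.0221). Every library with 25(OH)D plus ZK191784 was below every library with 25(OH)D alone, at 28.6 ± 2.82 against 37.3 ± 3.16 CPM (SD, n = 3), by a log2 fold change of −0.38 ± 0.21 that did not pass the test (edgeR adjusted p = 0.578). Against control the ZK191784 cells were 0.49 ± 0.21 log2 units apart (adjusted p = 0.690).

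Of 10 genes of the TGF-β pathway that feeds Klf10, 1 rose in 25(OH)D cells and 9 did not pass the test, a share near the 8.68% of all genes called, and the median log2 fold change of the 10 was 0.16, against −0.05 over all genes. Tgfb3, one of the ligands, averaged 53.2 ± 13.6 CPM with 25(OH)D and 12.5 ± 4.14 CPM in control (log2 fold change 2.08 ± 0.38, edgeR adjusted p = 0.00341). It averaged 21.6 ± 4.43 CPM with 25(OH)D plus ZK191784, −1.30 ± 0.36 log2 units from 25(OH)D alone (adjusted p = 0.0823). Tgfb1 had a log2 fold change of 0.12 ± 0.25 for 25(OH)D against control (adjusted p = 0.843), and Smad7, the inhibitory Smad, one of 0.25 ± 0.25 (adjusted p = 0.644).

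Klf9, known to be induced by glucocorticoids and thyroid hormone, had 516, 392 and 254 CPM with 25(OH)D plus ZK191784, 324, 870 and 529.5 CPM with 25(OH)D plus BGP and 834, 711 and 325 CPM with 25(OH)D, against 156, 166 and 363 CPM in control. A single control library, replicate 3, overlapped the 25(OH)D group, and a single 25(OH)D library, also replicate 3, fell below it. The mean was 624 ± 265 CPM with 25(OH)D and 228 ± 117 CPM in control (SD, n = 3), a log2 fold change of 1.45 ± 0.45 that did not pass the test (edgeR adjusted p = 0.0758). It was 1.33 ± 0.45 for 25(OH)D plus BGP against control (adjusted p = 0.107) and −0.69 ± 0.45 for ZK191784 against 25(OH)D (adjusted p = 0.698), and neither passed. Without 25(OH)D replicate 3 the 25(OH)D value passed at 1.76 (adjusted p = 0.0341), and without control replicate 3 it passed at 1.96 (adjusted p = 0.0216).

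Klf9 was among the genes whose level ran with the library ratio. Within each of the 4 groups its highest level was in the library with the highest ratio, a pattern shown by Klf2 and Klf7 too and by 17.5% of all genes tested. The lowest level was in the library with the lowest ratio in 3 of 4 groups for Klf9, Klf2 and Klf7 alike, control being the exception. Of all genes tested, 10.4% had that match in 4 of 4 groups. Control replicate 3 had the highest ratio of its group and 25(OH)D replicate 3 the lowest of its own. These were the libraries whose Klf9 levels overlapped, and the cause of that overlap was not tested. With the ratio as a covariate the log2 fold change of Klf9 was 1.23 ± 0.12 for 25(OH)D against control (edgeR adjusted p = 4.41e-10), 1.04 for 25(OH)D plus BGP against control (adjusted p = 2.47e-08) and −0.60 ± 0.12 for ZK191784 against 25(OH)D (adjusted p = 0.000294). DESeq2 on the libraries as they are called Klf9 higher with 25(OH)D than in control (adjusted p = 0.0192). The part of library composition in the Klf9 levels beyond this was not tested.

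**Figure D2:**
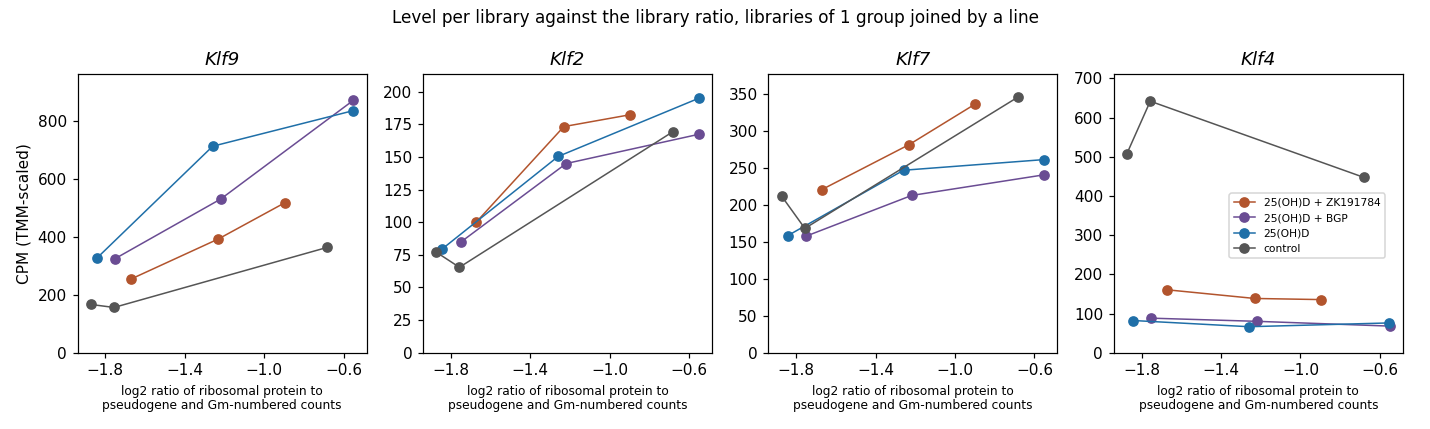
Level in TMM-scaled CPM of Klf9, Klf2, Klf7 and Klf4 in each library against the library ratio (log2), with the 3 libraries of a group joined by a line. Within every group Klf9, Klf2 and Klf7 are highest at the highest ratio. Klf9 runs lower in control than in the other 3 groups at like ratios. Klf4 at the highest ratio is the lowest of its group with ZK191784 (136 CPM), with BGP (67.9 CPM) and in control (447 CPM). With 25(OH)D alone the library at the highest ratio is the middle one for Klf4 (76.0 CPM).

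Klf13, known in human T cells as a late activator of the chemokine gene CCL5, had 145, 129.9 and 129 CPM with 25(OH)D plus ZK191784, 151, 179 and 141 CPM with 25(OH)D plus BGP and 157, 186 and 142 CPM with 25(OH)D, against 117, 121 and 136 CPM in control. Every 25(OH)D and every BGP library was above every control library, by a small distance. The log2 fold change was 0.38 ± 0.15 for 25(OH)D against control (edgeR adjusted p = 0.157), 0.34 ± 0.15 for 25(OH)D plus BGP against control (adjusted p = 0.230) and −0.26 ± 0.15 for ZK191784 against 25(OH)D (adjusted p = 0.587). None of these passed the test. The first did once the library ratio was a covariate (0.35, adjusted p = 0.0267).

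Klf15, known as a glucocorticoid-induced factor of amino acid breakdown in muscle and liver, had 22, 7 and 9 counts with 25(OH)D plus ZK191784, 0, 4 and 6 counts with 25(OH)D plus BGP and 7, 1 and 3 counts with 25(OH)D, against 6, 3 and 17 counts in control. The groups overlapped, except that every ZK191784 library was above every BGP library, and at these counts no difference was tested.

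Of 7 genes of the glucocorticoid receptor and its classical targets, which are known to act on or beside Klf9, Klf13 and Klf15, none was called in 25(OH)D cells against control by edgeR, and their median log2 fold change was −0.11. The receptor Nr3c1 had a log2 fold change of −0.09 ± 0.16 (edgeR adjusted p = 0.804). Tsc22d3, a glucocorticoid-induced leucine zipper protein, averaged 261 ± 85.3 CPM with 25(OH)D and 519 ± 325 CPM in control (adjusted p = 0.183). Sgk1, a kinase, averaged 179 ± 11.7 CPM with 25(OH)D and 276 ± 73.9 CPM in control (adjusted p = 0.0522). Sgk1 fell by 0.69 on the log2 scale with 25(OH)D plus BGP against control (adjusted p = 0.0331), a call that 6 of 14 alternative settings lost, with adjusted p up to 0.165, the fits without any 1 BGP library or without control replicate 3 among them.

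Klf3, a repressor that recruits CtBP and is known to hold back adipocyte formation, was the steadiest member. It had 82.7, 82.9 and 80.2 CPM with 25(OH)D plus ZK191784, 76.0, 89.7 and 70.0 CPM with 25(OH)D plus BGP and 75.1, 80.0 and 77.4 CPM with 25(OH)D, against 97.8, 85.8 and 76.6 CPM in control. Every ZK191784 library was above every 25(OH)D library by a log2 fold change of only 0.08 ± 0.14 (edgeR adjusted p = 0.955). Its SD within groups was 0.13 log2 units, at percentile 4.22 of all genes tested, against 0.66 for Klf9 at percentile 81.5 and 0.19 for Klf4 at percentile 13.6. An antisense gene, Gm20033, overlaps exons of Klf3 in the annotation and had 71 counts against 4213 for Klf3, and the strand setting of the counting is not given in the sources used here.

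Set side by side, the comparison of 25(OH)D with control called 1 of 8 tested members higher, Klf10, and 0 lower, against 4.76% of all 14394 genes called higher and 3.93% lower. The groups did not overlap for 2 members with higher levels, Klf10 and Klf13, and 1 with lower levels, Klf5, against 21.9% of all genes in either direction. These counts leave out Klf4 and are near the background. The median log2 fold change of the 8 was 0.13, against −0.05 over all genes. The mean level in 25(OH)D cells was above that in control for Klf2, Klf9, Klf10 and Klf13 and below it for Klf3, Klf4, Klf5, Klf6 and Klf7.

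Adding BGP to 25(OH)D called 0 of 9 members and left 0 without overlap, against 0% of all genes called and 6.04% without overlap. By edgeR 268 of the 14394 genes had an unadjusted p under 0.05, and none of the 9 members was among them. The intervals differed in width with the spread of each gene. Klf9 had a log2 fold change of −0.12 with a 95% interval from −1.09 to 0.85, while the interval for Klf3 was −0.29 to 0.33 and that for Klf13 −0.36 to 0.27. Against control, 25(OH)D plus BGP called 0 of 8 members, against 8.25% of all genes, and 2 of the 8, Klf10 and Klf13, did not overlap, against 21% of all genes.

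With 25(OH)D plus ZK191784 against 25(OH)D, 0 of 8 members were called, against 3.53% of all genes, and 2 did not overlap, Klf3 above and Klf10 below, against 17.6% of all genes. Against control, 0 of 8 were called, against 0.723% of all genes, and 0 did not overlap, against 11.8%. An unadjusted p under 0.05 in edgeR was found for 1 of the 8 against 25(OH)D alone, Klf6, and for 1 of the 8 against control, Klf10, where 1643 and 960 of all 14394 genes had one, so these counts are near the background. The mean level in ZK191784 cells lay between those of 25(OH)D and control for Klf4, Klf5, Klf9, Klf10, Klf13 and Klf3. It lay above both for Klf2, Klf6, Klf7 and Klf15. The set was chosen by that level of Klf4, and the share of all genes with a mean in between was not counted.

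**Figure D3:**
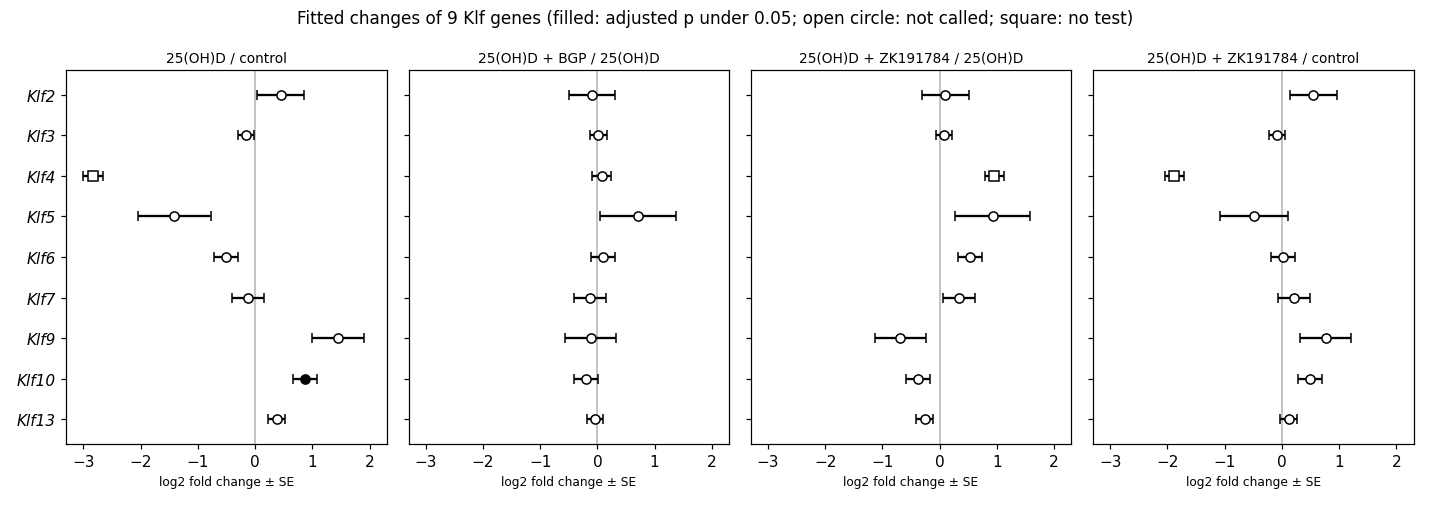
Log2 fold change ± SE (horizontal axis) of the 9 factors that passed the filter, in 4 comparisons named with the first group over the second; a filled circle is a call at an adjusted p under 0.05, an open circle no call and a square no test, and the grey line is 0. Klf4 lies at −2.83 for 25(OH)D over control, 0.95 for 25(OH)D plus ZK191784 over 25(OH)D and −1.88 for 25(OH)D plus ZK191784 over control, and the one filled circle is Klf10 at 0.87 for 25(OH)D over control.

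The rest of the family gave no call. Klf8, Klf11, Klf12 and Klf16 were tested and 0 of 4 were called by edgeR in any of the 5 comparisons, at mean levels between 2.56 and 7.64 CPM. Of the 9 Sp factors 5 were tested and 0 were called. Sp1, the founding member, averaged 154 ± 17.9 CPM with 25(OH)D plus ZK191784, 149 ± 17.7 CPM with 25(OH)D plus BGP, 161 ± 18.1 CPM with 25(OH)D and 153 ± 20.7 CPM in control. Sp7, the osteoblast factor osterix, had a log2 fold change of −0.47 ± 0.65 for 25(OH)D against control (adjusted p = 0.747).

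None of 10 genes for cofactors of the family, Ctbp1, Ctbp2 and Sin3a among them, and none of 6 genes for ubiquitin ligases that act on its proteins was called by edgeR in any comparison. Crebbp, a coactivator acetylating histones and some of these factors, had a log2 fold change of 0.13 ± 0.12 for 25(OH)D against control (adjusted p = 0.619). Fbxw7, a ligase subunit that marks Klf5 among others, averaged 45.8 ± 9.93 CPM with 25(OH)D and 61.0 ± 4.04 CPM in control (adjusted p = 0.184).

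Among 6 genes of the MEK5-ERK5-MEF2 pathway, the known route to Klf2 and Klf4 in endothelium, 1 rose and 1 fell in 25(OH)D cells against control, where 4.76% of all genes were called higher and 3.93% lower. The median log2 fold change of the 6 was −0.22, against −0.05 over all genes. This list too was chosen with earlier results of these data known, so its share of calls is a description only. Mef2c had 181, 192 and 179.8 CPM with 25(OH)D plus ZK191784, 74.9, 61.0 and 51.1 CPM with 25(OH)D plus BGP and 69.3, 83.7 and 79.5 CPM with 25(OH)D, against 428, 497 and 320 CPM in control. The 3 control libraries were highest and the ZK191784 libraries next, without overlap. Mef2c fell in 25(OH)D cells (log2 fold change −2.42 ± 0.19, edgeR adjusted p = 5.37e-06) and was higher with ZK191784 than with 25(OH)D alone (1.25 ± 0.18, adjusted p = 0.00180). It fell in ZK191784 cells against control (−1.17 ± 0.18, adjusted p = 0.0100), a call that 5 of 14 alternative settings lost, with adjusted p up to 0.0674, the fits without any 1 ZK191784 library or without control replicate 1 among them.

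Mef2a averaged 340 ± 93.5 CPM with 25(OH)D and 153 ± 46.1 CPM in control. It rose in 25(OH)D cells (log2 fold change 1.15 ± 0.31, edgeR adjusted p = 0.0353), a call lost in 6 of 14 settings, among them without 25(OH)D replicate 1 (adjusted p = 0.148) or 2 (adjusted p = 0.0952) and without control replicate 1 (adjusted p = 0.150) or 2 (adjusted p = 0.128). Mapk7, the gene of ERK5, had a log2 fold change of −0.53 ± 0.59 (adjusted p = 0.677).

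Of 14 genes known as targets of these factors in other tissues, 9 could be tested, and 2 rose and 1 fell in 25(OH)D cells against control, where 4.76% of all genes were called higher and 3.93% lower. The median log2 fold change of the 9 was −0.15, against −0.05 over all genes. The list was chosen with earlier results of these data known, so its share of calls is a description, and a part of the Klf genes in it was not tested. Cebpb, an early factor of adipocyte formation and a partner in inflammatory genes, averaged 1494 ± 172 CPM with 25(OH)D and 439 ± 29.9 CPM in control (log2 fold change 1.77 ± 0.14, edgeR adjusted p = 4.68e-06). It fell by 1.10 on the log2 scale with ZK191784 against 25(OH)D (adjusted p = 0.000523). Thbd, thrombomodulin, an endothelial target of Klf2 and Klf4, averaged 187 ± 95.4 CPM with 25(OH)D and 14.4 ± 9.98 CPM in control (3.70 ± 0.58, adjusted p = 0.00134). Tnfrsf11b, osteoprotegerin, the decoy receptor that limits osteoclast formation, fell to 5.93 ± 3.12 CPM with 25(OH)D, against 29.1 ± 11.1 CPM in control (−2.28 ± 0.46, adjusted p = 0.00725). Those 3 calls against control held in 14 of 14 alternative settings.

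With 25(OH)D plus ZK191784 against 25(OH)D alone, Thbd fell (log2 fold change −2.55 ± 0.55, edgeR adjusted p = 0.0216) and Tnfrsf11b rose (1.87 ± 0.46, adjusted p = 0.0450). Both calls were fragile, Thbd losing its own in 6 of 14 settings, with adjusted p up to 0.209, among them those without 25(OH)D replicate 1 or 2 or ZK191784 replicate 2 or 3, and Tnfrsf11b in 7 of 14, with adjusted p up to 0.153, including the fits without any single one of the 6 libraries compared. The cell cycle genes Cdkn1a and Ccnd1, at −0.15 ± 0.19 and −0.50 ± 0.50 log2 units for 25(OH)D against control, did not pass the test (adjusted p = 0.730 and 0.642).

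**Figure D4:**
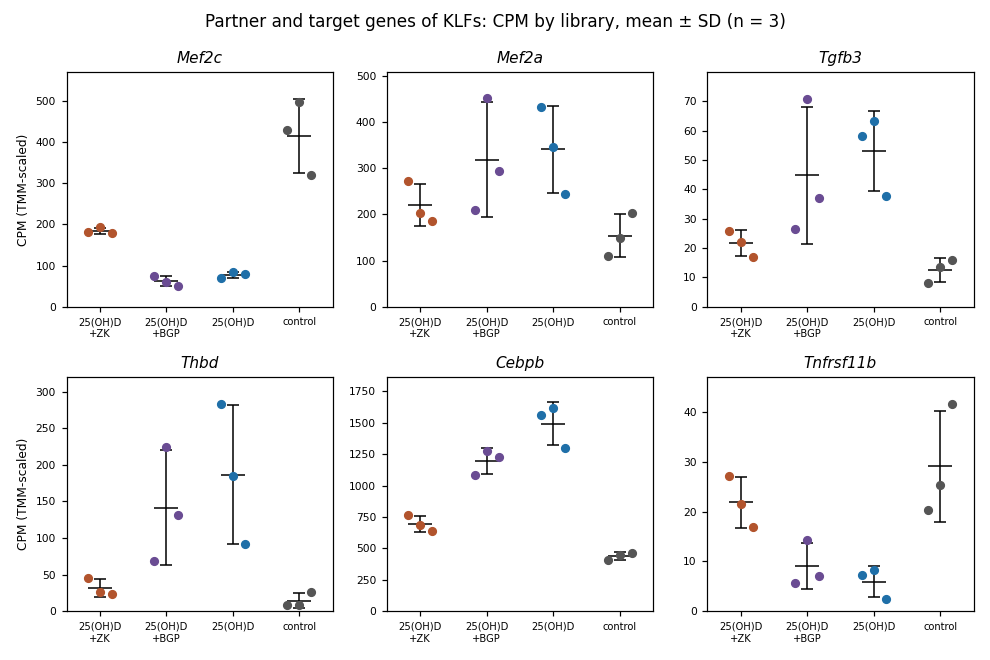
Level in TMM-scaled CPM of Mef2c, Mef2a, Tgfb3, Thbd, Cebpb and Tnfrsf11b in each library of the 4 groups, with the mean as a horizontal line and the SD as bars (n = 3). Mef2c is highest in control and next in 25(OH)D plus ZK191784, while Cebpb is highest with 25(OH)D and lowest in control.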

How the data were processed

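RNA of 12 libraries, 3 in each of 4 groups, was extracted with TRIzol and made into libraries with QuantSeq, a 3′ mRNA-seq kit, per the labels' protocols. The deposited values are counts per gene symbol and library, made by the authors with STAR 2.7.9a and featureCounts of Subread 2.0.3 on mm39, per the submitters' processing notes, which also name DESeq2 1.38.2 without its role. No source used here gives the strand setting, the annotation or any filter. Apart from the cell type markers, levels were compared between groups within a gene and not between genes.

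Low genes were removed with filterByExpr of edgeR, at a min.count of 10 and a min.total.count of 15, leaving 99.4% of the counts in 14394 genes. Libraries were scaled by TMM, and edgeR 4.0.16 in R 4.3.3 fitted a robust quasi-likelihood model to all 12 libraries, with 1 coefficient per group and no block. Calls are at a Benjamini-Hochberg adjusted p under 0.05 over all genes. SEs are approximate, from the log2 fold change and the F statistic (its absolute size over the root of F), and intervals are at 95%. CPM are TMM-scaled. The common biological coefficient of variation was 0.292. A symbol that occurred more than once (882 further entries) was read from its row with the highest total.

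The members, the lists and the naming rule were chosen with earlier results of these data known. All 10 members are named in every group, and of each list the called genes and up to 4 further genes with the highest mean CPM. Outside that rule, Smad7, Ctbp1 and Ctbp2 are named for their role. Smad7, Mapk7, Nr3c1, Sp7 and Fbxw7 were picked after their values were seen. The 5 genes most like Klf4 are those with the highest Pearson r of log2 CPM (prior count 2). Alternatives were RLE normalization, DESeq2 1.42.0, no filter, 2 other filters, a replicate block, the 2 groups alone, leaving out each library and, added after the data had been seen, the library ratio as a covariate. The method was tested on simulated data drawn for each gene alone. Such data lack the variation that genes share within groups, so that test says nothing on its effect here. Promoter windows are from RefSeq, GRCm38.p6. Figures were drawn with matplotlib 3.10.9.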

Additional observations from a re-analysis of the deposited data

How the results depend on the processing

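Single-gene values kept their direction in all but 23 of the fits under an alternative, and those 23 were small uncalled differences in fits that left out 1 library. The Klf4 log2 fold change ranged from −2.93 to −2.68 for 25(OH)D against control, from 0.87 to 1.02 for ZK191784 against 25(OH)D and from −1.96 to −1.72 for ZK191784 against control. Without 1 library, log2 fold changes crossed 0 for 25(OH)D plus BGP against 25(OH)D in Klf13 (−0.13 to 0.073), Klf2 (−0.38 to 0.21), Klf3 (−0.074 to 0.10), Klf4 (−0.014 to 0.18), Klf6 (−0.091 to 0.29), Klf7 (−0.32 to 0.031) and Klf9 (−0.53 to 0.17). They did so for ZK191784 against 25(OH)D in Klf2 (−0.19 to 0.40), for ZK191784 against control in Klf3 (−0.14 to 0.012) and Klf6 (−0.085 to 0.14), and in Klf7 for 25(OH)D plus BGP (−0.45 to 0.12) and 25(OH)D (−0.33 to 0.23) against control.

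With 25(OH)D against control the number of members called, 1 in the fit reported, was 2 with DESeq2, 4 with the library ratio as a covariate, 0 with only the groups compared and 0 to 2 without 1 library, being 0 without 25(OH)D replicate 2 or control replicate 2 and 2, Klf9 and Klf10, without 25(OH)D replicate 3. Without control replicate 3 the 1 member called was Klf9. For 25(OH)D plus BGP against control it was 2 with DESeq2, 4 with the covariate and 0 to 1 without 1 library, being 1 without control replicate 1 (Klf10) or 3 (Klf9). With the covariate it was 3 for ZK191784 against 25(OH)D and 2 for ZK191784 against control, and for 25(OH)D plus BGP against 25(OH)D it was 0 in every alternative run.

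Over all genes, 1250 calls with 25(OH)D against control became 2859 with the covariate, 763 with only the groups compared and 813 to 1266 without 1 library. For 25(OH)D plus BGP against control 1187 became 2672, 712 and 794 to 1143 in the same settings. For ZK191784 against 25(OH)D 508 became 1616 with the covariate, 334 with a replicate block and 269 to 428 without 1 library. For ZK191784 against control 104 became 224 with DESeq2, 676 with the covariate, 220 without the filter, 42 with only the groups compared, 56 with the block and 34 to 119 without 1 library. For 25(OH)D plus BGP against 25(OH)D 0 became 6 with the covariate. The cause of these differences was not tested, apart from the fewer libraries of some fits.

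The labels do not say whether like-numbered libraries were made together, and their count columns share a letter (A, B or C) of unstated meaning. Deviations of like-numbered libraries from their group means correlated between −0.71 and 0.61, above 0.1 in 4 of 18 pairs. With 1 component holding 58.9% of the variation within groups, these values cannot show whether libraries were paired. With the replicate block the members called stayed at 1 for 25(OH)D against control, with Klf10 at an adjusted p of 0.0478, and at 0 in the other 4 comparisons. Klf9 had an adjusted p of 0.234 for 25(OH)D plus BGP against control and 0.852 for ZK191784 against 25(OH)D.

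Counts limit Klf5 and Klf15, where the counts of Klf15 summed to 10 with 25(OH)D plus BGP and 11 with 25(OH)D alone, and the spread between libraries limits Klf9, Klf2 and Klf7.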
